A study of Mus musculus with 20 samples.

Results

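The xenobiotic-metabolizing cytochrome P450 genes of families 1, 2 and 3 were examined in 20 mouse livers with or without hepatocyte Cideb. Members were taken by symbol, as every gene named Cyp followed by the digit 1, 2 or 3, subfamily letters and a number, and were kept where at least 10 reads had been counted in at least 5 of the 20 libraries. Of 50559 genes in the count table, 60 carried such a symbol and 43 of these, from 14 subfamilies, met the count rule. Genes whose symbols end in a letter, such as Cyp3a41a and Cyp3a41b, were not taken by this rule. All mice carried floxed Cideb alleles (labelled cidebfl/fl). Those given AAV-TBG-GFP are called WT and those given AAV-TBG-Cre are called KO, after the study's usage. The TBG promoter drives the vector's gene in hepatocytes, so the other cells of a KO liver keep Cideb. Within each genotype, 5 mice were fed a Western diet (WD) and 5 a choline-deficient high-fat diet (CDA-HFD). The labels give 3 months for both diets and no age or sex, the study's text gives a longer time on WD than on CDA-HFD, and diet, feeding time and handling therefore cannot be told apart. Replicate numbers name separate livers.

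Cytochrome P450 enzymes are heme proteins of the endoplasmic reticulum that insert an oxygen atom into lipophilic substrates, with electrons passed from NADPH by the reductase Por. Families 1 to 3 handle most drugs and foreign chemicals in hepatocytes and also hydroxylate steroids, bile acids and fatty acids. Their genes are switched on by ligand-activated regulators: the aryl hydrocarbon receptor (Ahr) for the Cyp1 genes, and the nuclear receptors CAR (Nr1i3) and PXR (Nr1i2) for many Cyp2b, Cyp2c and Cyp3a genes. Several are concentrated in hepatocytes around the central vein, and several differ between male and female mice.

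The families arose by tandem duplication, and the 42 members in the GENCODE annotation (GRCm38) lay in few clusters, with 12 on chromosome 7 (the Cyp2a, Cyp2b, Cyp2f, Cyp2s and Cyp2t genes with Cyp2e1 and Cyp2r1), 11 on chromosome 19 (Cyp2c), 7 on chromosome 15 (Cyp2d), 5 on chromosome 5 (Cyp3a), 3 on chromosome 4 (Cyp2j) and 2 on chromosome 9 (Cyp1a). Cyp2d13, a pseudogene, was the member without an entry. Near-identical copies bear on many of the values below, because a read that matches 2 genes cannot be given to either. Of all stretches of 75 bases, the read length, in a member's exons, between 0 and 36.0% also occurred in another gene. The highest shares were 36.0% for Cyp2c67 and 28.5% for Cyp2c68, both mostly with Cyp2c40, followed by 22.3% for Cyp2a5 and Cyp2d10, 22.1% for Cyp2a4 and 21.9% for Cyp2d11. Cyp2d12 shared 2.37%, and Cyp1a2 shared 3.25%. The coding sequences of Cyp2a4 and Cyp2a5 were 98.4% identical, those of Cyp2b9 and Cyp2b13 92.7%, and those of Cyp2d12 and Cyp2d9 92.1%. The 75-base windows in which 3 such pairs differ most are shown so that a reader can see what separates their reads. They are given 5′ to 3′ on the coding strand, with the bases that differ from the partner in capitals and positions counted from 1 at the start codon.
Cyp2a4, coding bases 595 to 669: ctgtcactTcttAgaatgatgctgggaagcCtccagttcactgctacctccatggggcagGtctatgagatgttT
Cyp2a5, coding bases 595 to 669: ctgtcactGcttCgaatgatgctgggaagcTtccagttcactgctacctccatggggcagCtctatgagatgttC
Cyp2d12, coding bases 1429 to 1503: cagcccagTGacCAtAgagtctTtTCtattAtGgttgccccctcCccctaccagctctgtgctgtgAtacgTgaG
Cyp2d9, coding bases 1429 to 1503: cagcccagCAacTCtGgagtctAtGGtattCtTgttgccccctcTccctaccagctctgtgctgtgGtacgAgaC
Cyp2b9, coding bases 1052 to 1126: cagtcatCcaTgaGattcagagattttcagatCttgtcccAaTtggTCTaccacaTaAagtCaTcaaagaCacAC
Cyp2b13, coding bases 1052 to 1126: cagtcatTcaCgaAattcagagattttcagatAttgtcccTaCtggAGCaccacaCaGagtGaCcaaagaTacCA
Even in these windows Cyp2a4 and Cyp2a5 differed at 5 bases, while Cyp2d12 and Cyp2d9 differed at 14 and Cyp2b9 and Cyp2b13 at 16. Over the whole coding sequence 23.2% of 75-base windows were identical between Cyp2a4 and Cyp2a5, 5.84% between Cyp2d12 and Cyp2d9, and 5.0% between Cyp2b9 and Cyp2b13. Levels of Cyp2a4 and Cyp2a5, and of the other pairs with high shares, are therefore uncertain one by one.

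Values are given as CPM (gene counts scaled to the library total, with TMM factors), and levels of single genes are ranked per kilobase of exon. Sums of CPM and shares of these sums are not scaled for length, so longer genes weigh more in them. In WT livers on WD, Cyp2e1, the ethanol-oxidizing P450, stood first at 2783 CPM per kilobase. Cyp3a11, the main PXR-responsive member, followed at 439, Cyp2f2, a periportal enzyme that activates naphthalene, at 362, Cyp2d26 at 354 and the epoxygenase Cyp2j5 at 267 CPM per kilobase. The lowest of the 42 members with a length was Cyp2s1, an epithelial P450, at 0.147 CPM per kilobase. Summed over all 43 members, the level was 15248 ± 3383 CPM in WT against 17286 ± 2742 CPM in KO livers on WD, and 8808 ± 2229.6 CPM in WT against 14264 ± 2991 CPM in KO livers on CDA-HFD (mean ± SD, n = 5 in each group). Per liver the sum ran from 11869 to 19588 CPM in WT WD, 14819 to 21187 in KO WD, 5489 to 10495 in WT CDA-HFD and 10352 to 18252 in KO CDA-HFD, so that the WT CDA-HFD livers lay below all WT WD livers and overlapped the KO CDA-HFD livers at the lowest of these. Cyp2e1 alone made up 39.4% of the members' summed CPM in WT WD livers and 42.3% in WT CDA-HFD livers. Cyp3a made up 19.5%, 25.5%, 24.8% and 16.6% in WT WD, KO WD, WT CDA-HFD and KO CDA-HFD livers, and Cyp1a made up 0.955%, 1.18%, 2.95% and 4.08%. In bulk RNA, fewer hepatocytes and less P450 RNA per hepatocyte cannot be told apart.

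**Figure D1:**
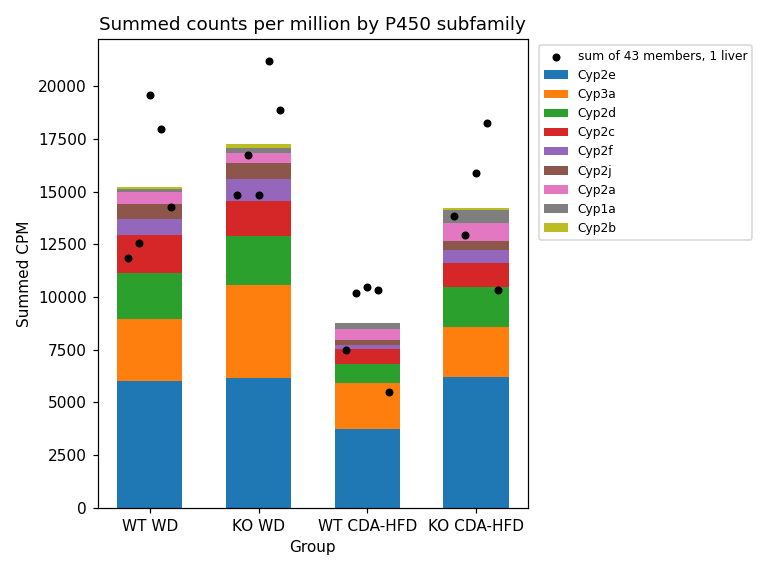
Summed TMM-scaled CPM of the P450 members (y axis) in the 4 groups (x axis). Stacked bars show the group means of 9 subfamilies, and points show the sum of all 43 members in each of 5 livers. The remaining subfamilies are not drawn in the bars. The WT CDA-HFD livers had the lowest sums, between 5489 and 10495 CPM.

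Libraries held 11697049 to 16827147 gene counts, of which the members held 0.686 to 1.81%. Cideb, the targeted gene, ran from 4.78 to 7.57 CPM in the WT WD group against 0 to 0.389 in KO WD, and from 2.22 to 3.83 CPM in WT CDA-HFD against 0 to 0.399 in KO CDA-HFD, without overlap on either diet. The Y-linked genes Ddx3y, Kdm5d, Eif2s3y and Uty were counted in every liver, and their sum with Xist lay between 165 and 271 CPM. Over 15 hepatocyte markers such as Alb, the livers had between 56996 and 150566 CPM in sum. Markers of other cells moved with diet. Summed over 16 macrophage markers, WT livers had 587 to 1913 CPM on WD and 2613 to 5000 CPM on CDA-HFD, and 15 stellate cell and fibroblast markers had 741 to 1402 CPM and 2642 to 4364 CPM. In KO CDA-HFD livers 1 to 4 these sums were 885 to 1185 CPM and 1488 to 1662 CPM, but KO CDA-HFD liver 5 had 3199 and 4523 CPM, within or above the WT range. The same liver had 56996 CPM over 15 hepatocyte markers against 109844 to 150566 CPM in the other 4, and it was the lowest of its group for 28 of the 43 P450 members. Results on CDA-HFD are therefore given with and without it, as an alternative chosen after the data were seen.

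**Figure D2:**
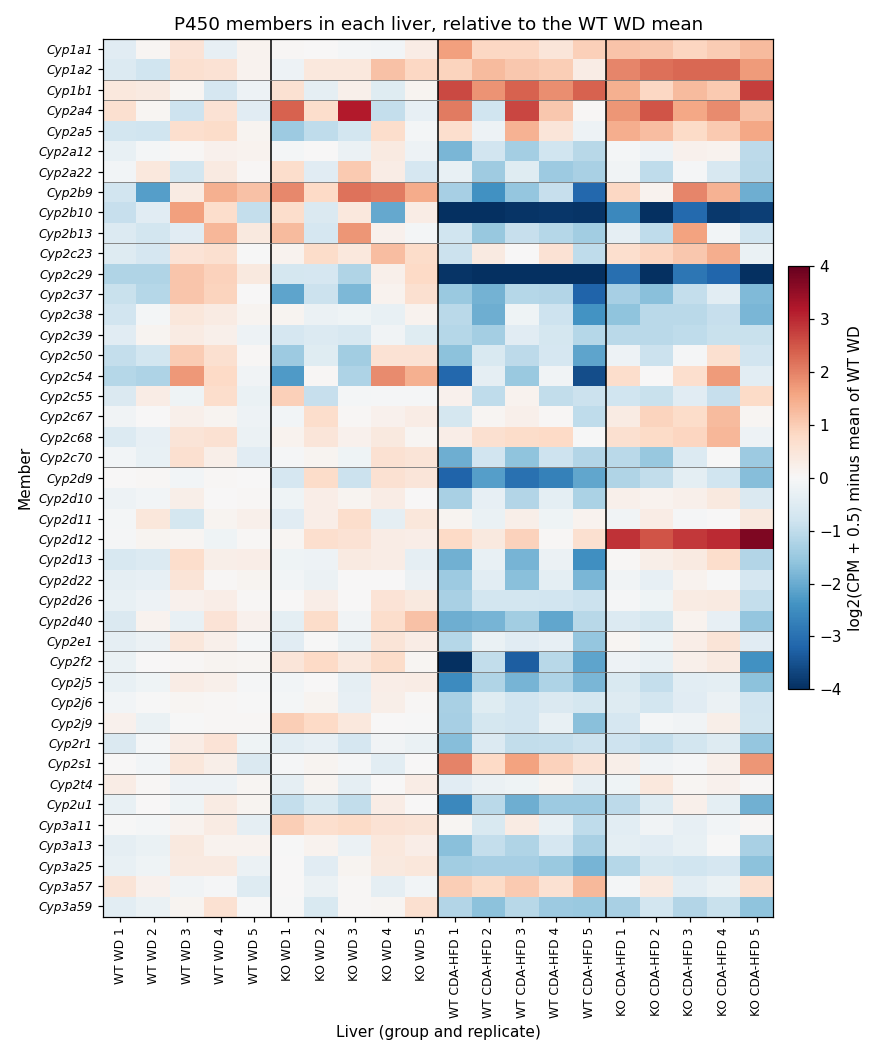
Heat map of the 43 members (rows, by subfamily) in the 20 livers (columns, by group), coloured by log2(CPM + 0.5) minus the mean of the WT WD livers, with the scale limited to -4 and 4. Cyp2b10 and Cyp2c29 were low in every CDA-HFD liver, and KO CDA-HFD liver 5 differed from the other KO CDA-HFD livers for many members.

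On WD, no member passed the threshold between WT and KO livers. In all, 0 of 39 tested members rose and 0 fell in edgeR's quasi-likelihood test (Benjamini-Hochberg adjusted p under 0.05 over 15848 genes), where 0.0126% of all genes rose and 0.0631% fell. At an unadjusted p under 0.05, 8 members (20.5%) stood out against 10.7% of all genes, 7 upward and 1 downward with Cideb loss, where 5.12% of all genes were higher and 5.62% lower. DESeq2 called 2 members higher, Cyp3a11 and Cyp2f2, and none lower, where it called 0.404% of all genes higher and 0.631% lower. The median log2 fold change over the 39 members was 0.105, against 0.012 over all genes. Cyp3a11 had 2193, 2082, 2426, 2750.3 and 1739 CPM in WT WD livers 1 to 5 and 4403, 3502, 3749.7, 3283 and 3150.1 CPM in KO WD livers 1 to 5. It was the member whose WT and KO livers did not overlap on WD, every KO liver being above every WT liver, where 1.14% of all genes were higher and 1.09% lower without overlap, and its log2 fold change was 0.69 ± 0.14 (SE, edgeR adjusted p = 0.14) (DESeq2 adjusted p = 0.000332). Cyp2f2 had 612, 737, 759.7, 783 and 779 CPM in WT against 1031, 1278, 970.1, 1224 and 779 CPM in KO livers, with overlap at the lowest KO liver, and a DESeq2 adjusted p of 0.0272 against 0.239 in edgeR. Cyp2b9, a steroid hydroxylase with higher levels in female liver, averaged 76.9 ± 58.4 CPM in WT against 186 ± 62.3 CPM in KO livers (log2 fold change 1.28 ± 0.53 (SE), edgeR adjusted p = 0.428). Cyp2c39 was the member that was lower at an unadjusted p under 0.05, at 6.11 ± 1.38 CPM in WT against 4.15 ± 0.735 CPM in KO livers (edgeR adjusted p = 0.333). Macrophage markers summed to 522 to 911 CPM in these KO livers, against 587 to 1913 CPM in WT, with 0 of 16 called in edgeR, and their part in these values was not tested.

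KO WD livers 1 and 3 differed from the other KO WD livers for Cyp2a4 and Cyp2d9, both with sex-biased expression. Cyp2a4, the steroid hydroxylase known for its higher level in female liver, had 62.7, 19.5, 110.1, 5.77 and 9.24 CPM in KO WD livers 1 to 5. Cyp2d9, the steroid hydroxylase known for its higher level in male liver, had 329.7, 874, 288, 797 and 731 CPM in the same livers, so that livers 1 and 3 were high for Cyp2a4 and low for Cyp2d9. Cyp2b9 did not share this pattern, with 207, 94.5, 245, 231 and 152 CPM in these livers, liver 4 lying between livers 1 and 3. The pattern was not limited to Cyp2a4 and Cyp2d9, however. Cyp2b13 had 5.33 and 7.83 CPM in KO WD livers 1 and 3 and at most 2.20 CPM in the others. Outside families 1 to 3, livers 1 and 3 were highest for female-biased Acot3, at 138 and 128 CPM against 49.6 to 78.8 CPM. They were lowest for male-biased Mup3, at 1370 and 1541 CPM against 3053 to 4784 CPM. Female-biased Atp6v0d2 and male-biased Mup20 and C6 did not separate them. In WT WD livers Cyp2a4 ran from 6.36 to 18.5 CPM and Cyp2d9 from 492 to 546 CPM, and Cyp2d9 was the steadiest member of that group, with a coefficient of variation of 3.94%, where the median of 38 members was 30.0%. Cyp2a4 was the most variable in KO WD livers, at 108%. WT CDA-HFD livers 1 and 3 were also high for Cyp2a4, with the livers at 51.2, 6.56, 77.4, 25.1 and 12.2 CPM. They were also the highest of their group for Cyp2a5, at 409 and 677 CPM, in which 21.0% of the 75-base stretches of Cyp2a4 occur. For Cyp2d9 they were the lowest of their group, at 56.5 and 66.8 CPM. These livers carried the Y-linked genes like all others.

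On CDA-HFD, 9 of 41 tested members (22%) rose with Cideb loss and 1 (2.44%) fell, where 8.19% of all 17204 genes tested rose and 7.29% fell. The members that rose were Cyp1a2, Cyp2a12, Cyp2b9, Cyp2c67 and the Cyp2d genes Cyp2d9, Cyp2d10, Cyp2d12, Cyp2d26 and Cyp2d40, and Cyp3a57 fell. The median log2 fold change over the 41 members was 0.691, against 0.005 over all genes, and 36 of the 41 were above 0. At an unadjusted p under 0.05, 25 members (61.0%) stood out against 35.3% of all genes, 24 upward and 1 downward, where 18.4% of all genes were higher and 16.9% lower. WT and KO livers did not overlap for 3 of the 41 members, Cyp1a2, Cyp2d9 and Cyp2d12, all higher in KO livers, where 5.03% of all genes were higher and 4.53% lower without overlap. In the exact two-sided permutation test, groups of 5 that do not overlap always give p = 0.00794, the smallest possible value. That value therefore adds no support for these 3 members. The same 3 members were called in every fit that left out 1 of the 10 livers, whereas the other 7 were called in 1 to 6 of the 10. Counts rested on single livers. Without KO CDA-HFD liver 5, 23 members rose and 3 fell (Cyp1b1, Cyp2s1 and Cyp3a57), and calls over all genes grew with them, to 19.6% higher and 21.8% lower. Without any one of KO livers 1 to 4 or WT livers 1, 3 and 5 only 3 or 4 members rose, where 2.05 to 4.73% of all genes did. Cell type markers moved in the same comparison, with 7 of 16 macrophage, 4 of 14 stellate and 1 of 10 cholangiocyte markers lower in KO livers and 0 of 11 endothelial and 0 of 11 lymphocyte markers called, and their part in the P450 results was not tested. The median log2 fold change over 15 hepatocyte markers was 0.37. Scaling by library size alone lowered the median of all genes by 0.19 on the log2 scale, and 7 members rose and 0 fell. Of all genes, 3.01% rose and 6.93% fell under this scaling.

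**Figure D3:**
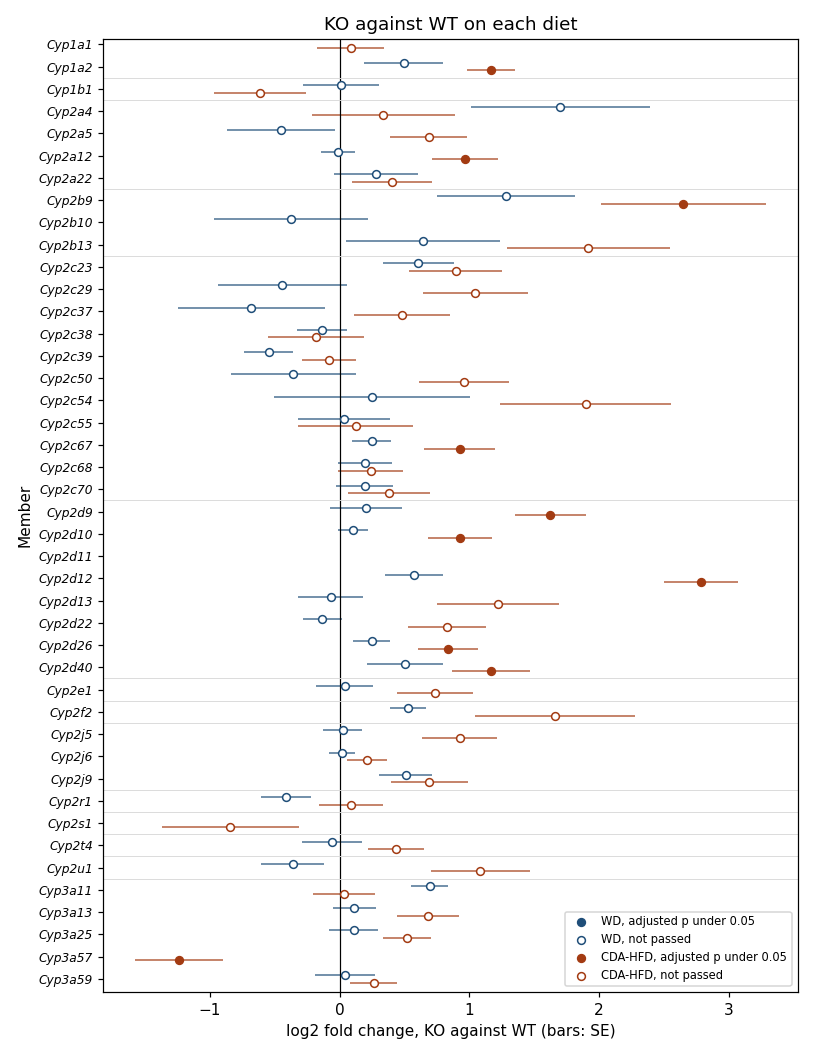
Log2 fold change of KO against WT livers (x axis) for each member (y axis) on WD and on CDA-HFD, with bars for the standard error and filled points for an edgeR adjusted p under 0.05. On WD 0 of 39 members passed the threshold and on CDA-HFD 10 of 41, 9 of them with higher levels in KO livers.

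Among the Ahr-regulated Cyp1 genes, Cyp1a2 rose and Cyp1a1 and Cyp1b1 did not pass the test. Cyp1a2 (ENSMUSG00000032310.4, chr9:57676937-57683703, minus strand), the constitutive family 1 enzyme of hepatocytes around the central vein, had 248, 323, 286, 267 and 165 CPM in WT CDA-HFD livers and 525, 620.3, 654, 665 and 439.5 CPM in KO CDA-HFD livers. All KO livers, liver 5 included, were above all WT livers, with a log2 fold change of 1.17 ± 0.19 (SE, edgeR adjusted p = 0.00923). Cyp1a1, the inducible member that is nearly silent in unstimulated liver, ran from 1.07 to 2.99 CPM in WT against 1.53 to 2.16 CPM in KO livers. Cyp1b1, which in liver is expressed mostly outside hepatocytes, had 20.1, 11.1, 16.5, 11.7 and 16.5 CPM in WT against 8.43, 5.45, 7.58, 6.32 and 22 CPM in KO livers. KO livers 1 to 4 lay below every WT liver for Cyp1b1 and liver 5 lay above, and without liver 5 its log2 fold change was -1.13 (edgeR adjusted p = 0.00131). To show how the neighbours Cyp1a1 and Cyp1a2 differ upstream, the 250 bases before their start sites are printed from RefSeq (GRCm38.p6), 5′ to 3′ in the direction of the gene, with the core of the Ahr response element (GCGTG on either strand) and the TATA box (TATAAA) in capitals. For Cyp1a2 the last 48 of the 250 bases lie in an exon of the GENCODE gene and are not printed, and the Cyp1a1 window lies in an intron of a longer GENCODE transcript.
Cyp1a1 (chr9:57697363-57697612, plus strand): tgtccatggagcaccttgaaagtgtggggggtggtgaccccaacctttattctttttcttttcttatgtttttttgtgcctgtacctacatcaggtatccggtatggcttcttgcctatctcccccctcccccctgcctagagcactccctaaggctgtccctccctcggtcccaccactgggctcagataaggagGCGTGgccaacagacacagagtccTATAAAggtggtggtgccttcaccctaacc
Cyp1a2 (chr9:57683704-57683905, minus strand): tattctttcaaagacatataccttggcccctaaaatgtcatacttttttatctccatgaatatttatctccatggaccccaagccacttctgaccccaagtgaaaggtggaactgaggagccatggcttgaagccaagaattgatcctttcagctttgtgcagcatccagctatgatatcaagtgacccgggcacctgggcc
Cyp1a1 held GCGTG 54 bases before the start and TATAAA at 30 bases, while Cyp1a2 held TATAAA at 29 bases, in the part not printed, and no GCGTG in its 250 bases. The windows aligned with 49.2% identity. Such a match of letters is no evidence of binding, and 28.3% of 32544 promoters hold GCGTG in a window of this length.

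Of 4 Cyp2a genes, Cyp2a12, a steroid and bile acid hydroxylase, rose, with 61.3, 127, 85.6, 127 and 100.3 CPM in WT against 205, 189, 244, 239 and 106 CPM in KO CDA-HFD livers (log2 fold change 0.97 ± 0.25 (SE), edgeR adjusted p = 0.03). Its groups overlapped, since KO liver 5 lay within the WT range. Cyp2a5, the coumarin hydroxylase, averaged 379.8 ± 186 CPM in WT against 612 ± 132 CPM in KO livers (edgeR adjusted p = 0.124), and the sum of Cyp2a4 and Cyp2a5, to which a read exchanged between them makes no difference, was 414 ± 214 CPM and 656 ± 130.3 CPM.

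Of 3 Cyp2b genes, Cyp2b9 rose, Cyp2b13 did not pass the test and Cyp2b10 was not tested. Cyp2b9 had 21.5, 9.80, 18.2, 28.8 and 5.75 CPM in WT CDA-HFD livers and 96.8, 60.5, 213, 144 and 13.7 CPM in KO CDA-HFD livers, a log2 fold change of 2.65 ± 0.64 (SE, edgeR adjusted p = 0.0234). KO liver 5 lay inside the WT range and the other KO livers above it, and the call was kept in 6 of 10 fits that left out a liver. Its neighbour Cyp2b13 averaged 0.610 ± 0.226 CPM in WT against 2.33 ± 2.60 CPM in KO livers and its log2 fold change was 1.92 ± 0.63 (SE, edgeR adjusted p = 0.0599). Cyp2b10, the classical target of CAR, was too low to be tested in this comparison, with 3 counts over the 5 WT and 23 over the 5 KO CDA-HFD libraries. The ratio of the pooled counts, scaled for library size, was 8.53 (95% exact interval for counting error only, 2.58 to 44.4), and 13 of the 23 counts came from KO liver 1. The upstream 250 bases of the 3 genes are shown because they separate Cyp2b10 from the near-identical pair, with capitals for AGGTCA (a motif of many nuclear receptors), GCGTG and TTATGNAA (a D-box core), each on either strand. For Cyp2b10 the last 38 bases lie in an exon of the GENCODE gene and are not printed.
Cyp2b9 (chr7:26173159-26173408, plus strand): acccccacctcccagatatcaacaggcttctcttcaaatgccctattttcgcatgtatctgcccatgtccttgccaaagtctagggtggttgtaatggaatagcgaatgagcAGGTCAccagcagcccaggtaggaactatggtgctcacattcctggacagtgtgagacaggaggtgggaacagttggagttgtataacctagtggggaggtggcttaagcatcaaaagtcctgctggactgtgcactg
Cyp2b13 (chr7:26061245-26061494, plus strand): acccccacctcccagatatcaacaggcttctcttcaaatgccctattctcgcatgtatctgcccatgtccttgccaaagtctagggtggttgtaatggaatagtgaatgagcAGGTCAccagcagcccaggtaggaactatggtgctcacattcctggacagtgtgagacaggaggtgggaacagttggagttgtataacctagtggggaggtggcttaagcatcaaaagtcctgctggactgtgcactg
Cyp2b10 (chr7:25897408-25897619, plus strand): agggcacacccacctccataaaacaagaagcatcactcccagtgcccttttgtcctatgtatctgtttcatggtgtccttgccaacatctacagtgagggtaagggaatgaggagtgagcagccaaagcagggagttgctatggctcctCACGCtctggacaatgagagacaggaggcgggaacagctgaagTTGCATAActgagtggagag
Cyp2b9 and Cyp2b13 were 99.2% identical over the 250 bases and differed at 2 of them, and both held AGGTCA 138 bases before the start. Cyp2b10 was 72.8% identical to Cyp2b9 and held GCGTG 101 bases and, in the part not printed, 9 bases, and the D-box core 58 bases before the start, with no AGGTCA.

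The Cyp2c genes include enzymes that epoxidize arachidonic acid and oxidize many drugs, and 1 of the 11 rose. Cyp2c67 had 65.1, 112, 122, 111 and 53.3 CPM in WT against 134, 201, 177, 258 and 113 CPM in KO CDA-HFD livers (log2 fold change 0.92 ± 0.28 (SE), edgeR adjusted p = 0.0453), it was called in 1 of 10 fits that left out a liver, and 36.0% of its 75-base stretches occur elsewhere. Cyp2c29, which is inducible through CAR and PXR, averaged 21.9 ± 10.5 CPM in WT against 45.3 ± 18.8 CPM in KO livers (edgeR adjusted p = 0.0948). Over the subfamily the log2 fold changes ran from -0.18 to 1.89, with a median of 0.48.

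The Cyp2d genes, which metabolize many basic drugs and in mice include sex-biased steroid hydroxylases, held 5 of the 9 members that rose. These were 5 of 7 tested, where 8.19% of all genes rose. The other 2, Cyp2d22 and the pseudogene Cyp2d13, were above 0, and the 7 had a median log2 fold change of 1.17 (0.83 to 2.78). Cyp2d12 (ENSMUSG00000096852.2, chr15:82555072-82560403, plus strand) had 1.84, 1.27, 2.04, 0.873 and 1.57 CPM in WT against 9.48, 7.16, 8.98, 10.1 and 17.3 CPM in KO CDA-HFD livers. Every KO liver was above every WT liver, and its log2 fold change, 2.78 ± 0.28 (SE, edgeR adjusted p = 0.00158), was the largest of the 41 tested members. KO liver 5, low for most other members, was the highest for Cyp2d12, and without it the log2 fold change was 2.53 (edgeR adjusted p = 5.5e-05). The counts behind these values were 13 to 37 per WT library and 113 to 289 per KO library. Cyp2d9 had 56.5, 113, 66.8, 80.0 and 125 CPM in WT against 229, 266, 402, 306 and 163 CPM in KO livers, again without overlap (log2 fold change 1.62 ± 0.27 (SE), edgeR adjusted p = 0.01). The remaining 3 called genes overlapped between WT and KO livers. Of 10 fits that left out a liver, Cyp2d10 was called in 3 and Cyp2d26 and Cyp2d40 in 2 each. Cyp2d10 averaged 219.7 ± 76.6 CPM and 419 ± 92.9 CPM (edgeR adjusted p = 0.0321), Cyp2d26 345 ± 50.1 CPM and 618 ± 198 CPM (edgeR adjusted p = 0.0347), and Cyp2d40 9.31 ± 2.92 CPM and 21.1 ± 8.57 CPM (edgeR adjusted p = 0.0287). Cyp2d11, whose counts were low, was the member of the subfamily not tested in any comparison.

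No member of the Cyp2e, Cyp2f, Cyp2j, Cyp2r, Cyp2s, Cyp2t or Cyp2u subfamilies passed the threshold on CDA-HFD with all livers. Without KO liver 5, where 19.6% of all genes rose and 21.8% fell, more were called. Besides Cyp2f2, Cyp2e1 (log2 fold change 0.85, edgeR adjusted p = 0.0295), Cyp2j5 (1.08, 0.00458), Cyp2j9 (0.81, 0.042) and Cyp2u1 (1.3, 0.0059) rose. Cyp2s1 (-1.65, 0.00642) fell. Cyp2e1 had 2685, 4941, 4332, 4639 and 2027 CPM in WT against 6227, 5199, 7078, 8367 and 4277 CPM in KO livers (log2 fold change 0.74 ± 0.29 (SE), edgeR adjusted p = 0.102). Cyp2f2 had 44.4, 369.5, 73.2, 336 and 168 CPM in WT against 629, 596, 844, 945 and 137 CPM in KO livers, with KO liver 5 inside the WT range, and without that liver its log2 fold change was 1.92 (edgeR adjusted p = 0.013) against 1.66 ± 0.62 (SE, edgeR adjusted p = 0.0857) with it. Cyp2j5 averaged 195 ± 67.6 CPM and 372 ± 115 CPM (edgeR adjusted p = 0.051) and Cyp2u1, a fatty acid hydroxylase, 9.09 ± 3.47 CPM and 19.3 ± 9.80 CPM (edgeR adjusted p = 0.0745). Cyp2r1, which hydroxylates vitamin D, averaged 7.34 ± 2.08 CPM and 7.84 ± 2.05 CPM, and Cyp2t4 1.29 ± 0.284 CPM and 1.75 ± 0.352 CPM. Cyp2s1 was listed at 0.906, 0.570, 0.665, 0.882 and 3.54 CPM in KO livers, liver 5 being the high one, against 4.19, 1.55, 3.15, 1.75 and 1.28 CPM in WT livers.

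In the Cyp3a subfamily, Cyp3a57 was the called member and moved opposite to the others that were called. It had 1.72, 1.41, 1.82, 1.21 and 2.28 CPM in WT against 0.557, 0.951, 0.332, 0.441 and 1.26 CPM in KO CDA-HFD livers, a log2 fold change of -1.24 ± 0.34 (SE, edgeR adjusted p = 0.0347), with the call kept in 3 of 10 fits that left out a liver and lost under library size scaling. Cyp3a11, which was higher in every KO liver on WD, had 2359, 1462, 2804, 1788 and 1100.3 CPM in WT against 1657, 1995, 1754, 2059.7 and 2290.0 CPM in KO livers on CDA-HFD, with an edgeR adjusted p of 0.937. Cyp3a25 averaged 183 ± 26.6 CPM and 264 ± 66.5 CPM (edgeR adjusted p = 0.0754).

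**Figure D4:**
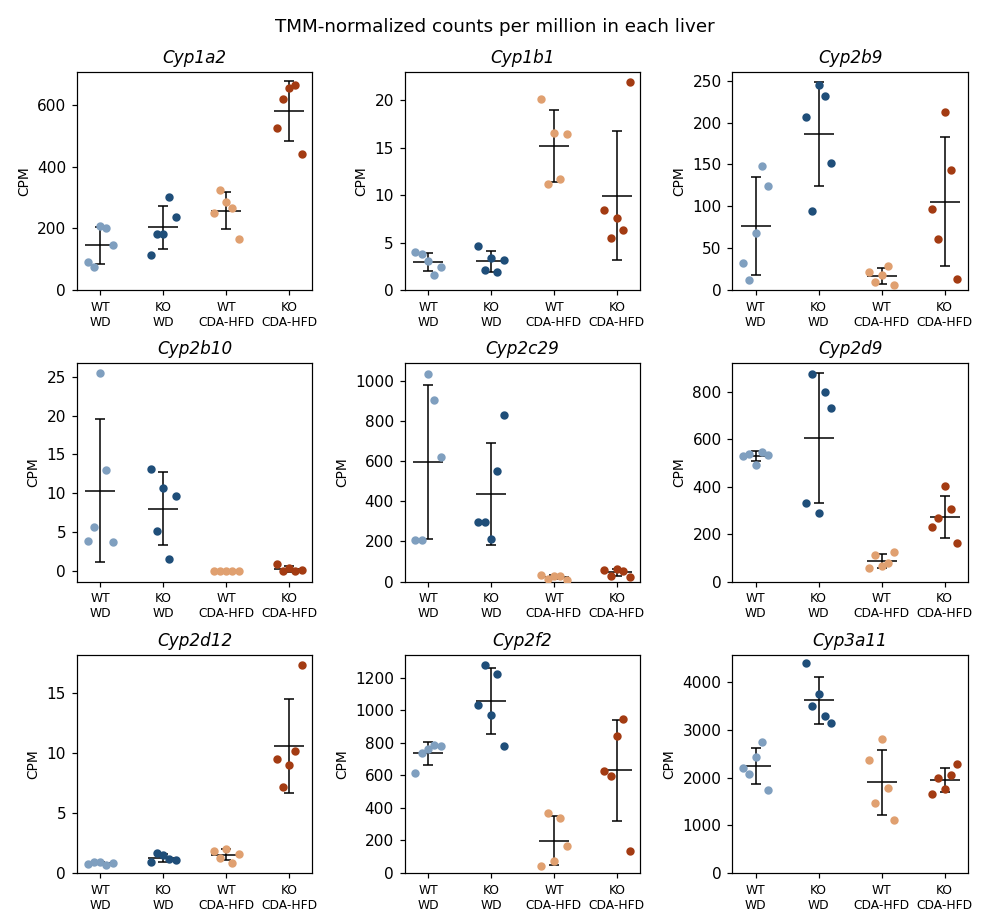
TMM-scaled CPM (y axis) of Cyp1a2, Cyp1b1, Cyp2b9, Cyp2b10, Cyp2c29, Cyp2d9, Cyp2d12, Cyp2f2 and Cyp3a11 in the 4 groups (x axis), with points for livers and bars for the mean ± SD of 5 livers. For Cyp1a2, Cyp2d9 and Cyp2d12 the WT and KO CDA-HFD points do not overlap, and for Cyp3a11 the WT and KO WD points do not.

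Whether the KO effect itself differed between diets was tested as an interaction over all 20 livers. Of 42 members tested, 1 had a larger KO effect on CDA-HFD than on WD and 0 a smaller one, where 0.331% and 0.225% of all 17804 genes were called. The called member was Cyp2d12, whose KO effect was higher on CDA-HFD by 2.22 ± 0.38 (SE, edgeR adjusted p = 0.0114). On WD it had 0.784, 0.946, 0.908, 0.694 and 0.876 CPM in WT against 0.920, 1.63, 1.49, 1.14 and 1.10 CPM in KO livers, which overlapped, with 7 to 21 counts per library. The call was kept in all 20 fits that left out a liver and lost under library size scaling and under the filter of at least 10 counts in every library, where the gene was not tested. For the other 41 members a different KO effect on the 2 diets was not shown. At an unadjusted p under 0.05, 12 of the 42 members, Cyp2d12 among them, were higher and 1 lower, where 9.88% of all genes were higher and 5.49% lower. DESeq2 called 3 members higher (Cyp2a12, Cyp2d9 and Cyp2d12) and 1.57% of all genes. Without KO CDA-HFD liver 5 edgeR called 8 members higher and Cyp1b1 lower, and 6.17% of all genes higher and 5.71% lower.

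In WT livers, 27 of 42 tested members (64.3%) fell and 6 (14.3%) rose on CDA-HFD relative to WD, where 25.2% of all 16726 genes fell and 25.9% rose. The median log2 fold change over the members was -1.06, against 0.00 over all genes, and groups did not overlap for 19 members that were lower and 3 that were higher, where 17.8% of all genes were lower and 19.3% higher without overlap. This comparison shares its WT CDA-HFD livers with the KO comparison on CDA-HFD, so these comparisons are not independent. Under library size scaling 23 members fell and 9 rose (28.1% of calls higher, against 18.2% with TMM), while the median of all genes moved by 0.42 on the log2 scale and 85.3% of all calls were higher instead of 50.7%. All 10 cholangiocyte, 13 of 14 stellate, 10 of 16 macrophage and 7 of 10 lymphocyte markers rose, 9 of 15 hepatocyte, 7 of 11 endothelial and 2 of 16 macrophage markers fell, and their part in the P450 values was not tested.

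The 6 members that rose on CDA-HFD in WT livers were the 3 Cyp1 genes, Cyp2d12, Cyp2s1 and Cyp3a57. Cyp1b1 had 4.0, 3.78, 3.03, 1.59 and 2.41 CPM on WD against 20.1, 11.1, 16.5, 11.7 and 16.5 CPM on CDA-HFD in WT livers, without overlap (log2 fold change 2.34 ± 0.24 (SE), edgeR adjusted p = 2.83e-05). Cyp1a1 averaged 0.653 ± 0.324 CPM and 1.74 ± 0.730 CPM (log2 fold change 1.37 ± 0.36 (SE), edgeR adjusted p = 0.00766) and Cyp1a2 145 ± 60.6 CPM and 258 ± 59 CPM (log2 fold change 0.83 ± 0.28 (SE), edgeR adjusted p = 0.0259). The part of these changes that lies outside hepatocytes was not tested. Cyp2b10 fell furthest, with 635 counts over 5 WT WD libraries and 3 over 5 WT CDA-HFD libraries, a ratio of 0.00345 (95% exact interval for counting error only, 0.000711 to 0.0101). Its WD livers had 3.92, 5.67, 25.4, 13.0 and 3.79 CPM. Cyp2c29 had 208, 208, 1036, 906 and 623 CPM on WD and 31.2, 14.4, 29.8, 26.9 and 7.28 CPM on CDA-HFD, every CDA-HFD liver lying below every WD liver (log2 fold change -4.77 ± 0.58 (SE), edgeR adjusted p = 6.83e-05). Cyp2d9 fell without overlap, from 528 ± 20.8 CPM to 88.3 ± 29.6 CPM (log2 fold change -2.59 ± 0.20 (SE), edgeR adjusted p = 8.28e-06). All 3 Cyp2b, all 3 Cyp2j, 6 of 7 tested Cyp2d, 6 of 11 Cyp2c, 3 of 5 Cyp3a and 2 of 4 Cyp2a genes fell, as did Cyp2e1, Cyp2f2, Cyp2r1 and Cyp2u1. Of these, Cyp2j5 fell from 625 ± 108 CPM to 195 ± 67.6 CPM (edgeR adjusted p = 0.000146) and Cyp3a25 from 517 ± 119 CPM to 183 ± 26.6 CPM (edgeR adjusted p = 3.79e-05). The fall of Cyp2e1 (log2 fold change -0.69 ± 0.27 (SE), edgeR adjusted p = 0.0468) was called in 3 of 10 fits that left out a liver. Cyp3a11 was not among them, at 2238 ± 379 CPM on WD and 1903 ± 684 CPM on CDA-HFD.

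In KO livers, 11 of 40 tested members (27.5%) fell and 5 (12.5%) rose on CDA-HFD relative to WD, where 7.85% of all 16387 genes fell and 9.19% rose, with a median of -0.49 over the members. Groups did not overlap for 8 members that were lower and 5 that were higher, where 7.14% and 8.09% of all genes did not. The count that fell was 7 without any one of KO WD livers 2 and 4 or KO CDA-HFD livers 1 and 2, where 4.8 to 5.62% of all genes fell. Without KO CDA-HFD liver 5, 10 members fell and 6 rose, where 8.37% of all genes fell and 9.03% rose. Macrophage (8 of 16), stellate (5 of 14), cholangiocyte (5 of 10) and lymphocyte markers (4 of 8) rose in these livers too, 2 of 15 hepatocyte markers fell and 0 of 11 endothelial markers were called, and their part was not tested. Under library size scaling 9 fell and 7 rose (43.8% of calls higher, against 31.2% with TMM), with a shift of 0.25 in the median of all genes. Those that rose were Cyp1a1, Cyp1a2, Cyp1b1, Cyp2a5 and Cyp2d12. Cyp1a2 had 115, 181, 181, 302 and 236 CPM in KO WD livers and 525, 620.3, 654, 665 and 439.5 CPM in KO CDA-HFD livers, with no overlap (log2 fold change 1.51 ± 0.23 (SE), edgeR adjusted p = 0.00182). Cyp2a5 averaged 208 ± 130 CPM and 612 ± 132 CPM (log2 fold change 1.55 ± 0.36 (SE), edgeR adjusted p = 0.0159), and Cyp2d12 1.26 ± 0.296 CPM and 10.6 ± 3.92 CPM (log2 fold change 3.07 ± 0.28 (SE), edgeR adjusted p = 8.36e-05). Cyp2b10 and Cyp2c29 fell in KO livers too. Cyp2b10 had 468 counts on WD and 23 on CDA-HFD, a ratio of 0.0393 (95% exact interval for counting error only, 0.0247 to 0.0598), and Cyp2c29 averaged 437 ± 254 CPM and 45.3 ± 18.8 CPM (log2 fold change -3.28 ± 0.43 (SE), edgeR adjusted p = 0.000687). Cyp3a11 fell from 4403, 3502, 3749.7, 3283 and 3150.1 CPM on WD to 1657, 1995, 1754, 2059.7 and 2290.0 CPM on CDA-HFD (log2 fold change -0.89 ± 0.16 (SE), edgeR adjusted p = 0.00468), with all CDA-HFD livers lower than all WD livers. Cyp2d9 fell from 604 ± 274 CPM to 273 ± 89.1 CPM (edgeR adjusted p = 0.0375, called in 3 of 10 fits that left out a liver).

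**Figure D5:**
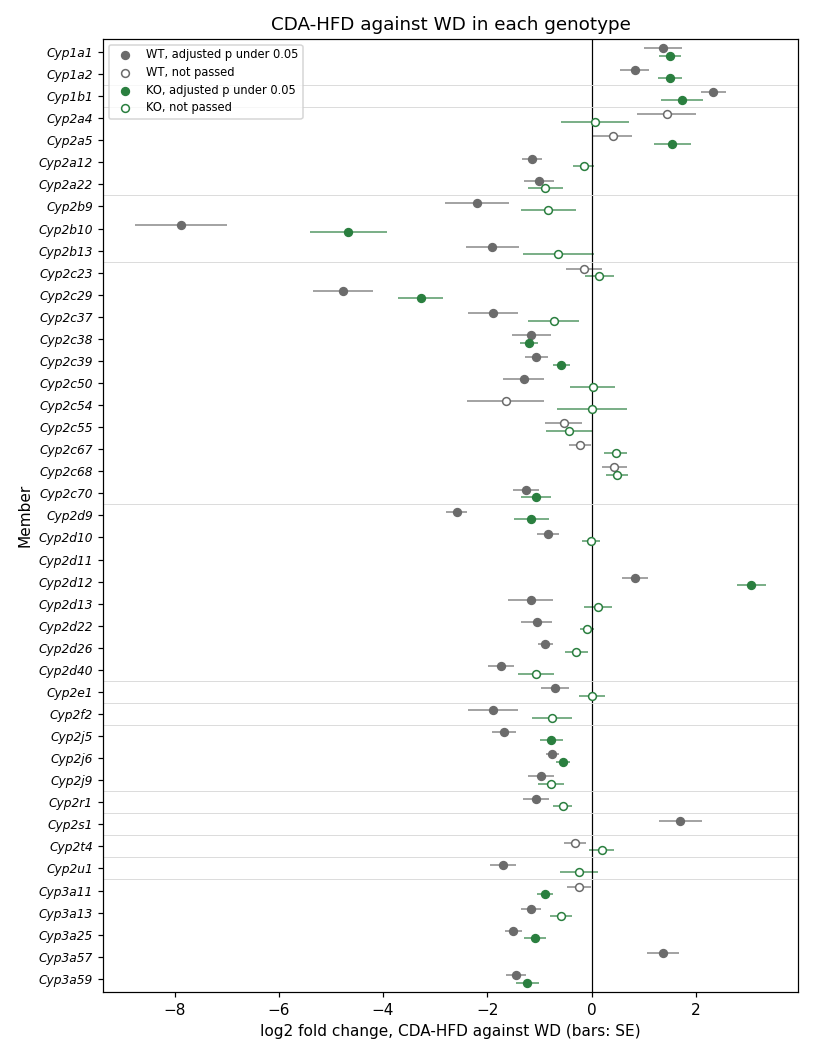
Log2 fold change of CDA-HFD against WD (x axis) for each member (y axis) in WT and in KO livers, with bars for the standard error and filled points for an edgeR adjusted p under 0.05. In WT livers 27 of 42 members were lower and 6 higher past the threshold, and in KO livers 11 of 40 were lower and 5 higher.

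Lists of genes that work with or control the P450s were counted alongside. These lists were compiled with earlier results of the same livers known, so their directions are descriptions. For all counts in this paragraph, the shares over all genes were 8.19% higher and 7.29% lower in KO livers on CDA-HFD. With CDA-HFD in WT livers 25.2% of all genes fell. Of 23 tested transcription factors of xenobiotic and hepatocyte genes, 9 rose and 1 fell in KO livers on CDA-HFD, and 18 fell with CDA-HFD in WT livers. Nr1i3 (CAR) rose by 1.06 ± 0.24 (SE, edgeR adjusted p = 0.0191) and Nr1i2 (PXR) by 0.61 ± 0.12 (SE, edgeR adjusted p = 0.0142) on the log2 scale in KO CDA-HFD livers. Both fell with CDA-HFD in WT livers, Nr1i2 with a log2 fold change of -0.99 ± 0.10 (SE, edgeR adjusted p = 2.06e-05) and Nr1i3 with -0.61 ± 0.21 (SE, edgeR adjusted p = 0.0303). Ahr did not pass the test in any of the comparisons, with log2 fold changes from -0.26 to 0.47 (edgeR adjusted p from 0.232 to 0.838). Foxa2, a hepatocyte pioneer factor, had the smallest p among the factors that rose in KO CDA-HFD livers, with a log2 fold change of 1.61 ± 0.23 (SE, edgeR adjusted p = 0.00733). Among 7 tested targets of Ahr outside the P450s, Selenbp1 rose (0.68 ± 0.19 (SE) on the log2 scale, edgeR adjusted p = 0.0395) and Tiparp fell (-0.59 ± 0.16 (SE), edgeR adjusted p = 0.0304) in KO livers on CDA-HFD. Of 6 electron transfer partners, 1 rose in KO CDA-HFD livers, the reductase Por, by 0.89 ± 0.19 (SE, edgeR adjusted p = 0.0171), and all 6 fell with CDA-HFD in WT livers. Of 12 heme genes, 2 rose and 2 fell in KO CDA-HFD livers, with Cpox, a late step of heme synthesis, at 0.90 ± 0.20 (SE) and Hmox1, which breaks heme down, at -1.22 ± 0.12 (SE) on the log2 scale (edgeR adjusted p = 0.0199 and 0.00158), while Alas1, the first step of heme synthesis, had 0.42 ± 0.26 (SE, edgeR adjusted p = 0.271). On WD, 0 genes of any of these lists passed the test of KO against WT livers, where 0.0126% of all genes rose and 0.0631% fell.

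P450 genes of other families, which include enzymes of bile acid, sterol and fatty acid metabolism, were counted too. Beside the counts below, 8.19% of all genes rose and 7.29% fell in KO livers on CDA-HFD. With CDA-HFD in WT livers 25.9% of all genes rose and 25.2% fell. Of 26 tested, 11 rose and 0 fell in KO livers on CDA-HFD with a median log2 fold change of 0.76, and 19 fell and 5 rose with CDA-HFD in WT livers with a median of -1.10. Of 15 tested male-biased liver genes outside families 1 to 3, 6 rose and 0 fell in KO livers on CDA-HFD, the fatty acid elongase Elovl3 having the smallest p (log2 fold change 2.07 ± 0.27 (SE), edgeR adjusted p = 0.00461), and of 10 female-biased genes 0 rose and 1 fell. The median over these 10 was 0.09. The gene that fell was Atp6v0d2 (log2 fold change -2.11 ± 0.59 (SE), edgeR adjusted p = 0.0368). It had 39.3 to 91.3 CPM in WT CDA-HFD livers. In KO CDA-HFD livers it had 4.31 to 7.46 CPM in livers 1 to 4 and 43.3 CPM in liver 5. Hepatocyte genes of both zones rose by count, with 7 of 18 pericentral and 4 of 16 periportal genes outside the P450s higher and 0 lower in KO CDA-HFD livers. Of 5 flavin-containing monooxygenases, which oxidize many of the same drugs, 2 rose, with Fmo5 at 0.71 ± 0.17 (SE) on the log2 scale (edgeR adjusted p = 0.0217). By role within families 1 to 3, 2 of 10 pericentral members, 1 of 12 tested CAR- or PXR-inducible members and 0 of 10 tested arachidonic acid epoxygenases were higher in KO CDA-HFD livers and 0 were lower, against the 8.19% of all genes that rose. With CDA-HFD in WT livers, 8 of 13 tested CAR- or PXR-inducible members and 8 of 10 epoxygenases fell, and 5 of 10 pericentral members fell and 1 rose, against the 25.2% of all genes that fell.

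Upstream sequence was searched for all 37 members with a RefSeq promoter entry, as the 250 bases before the start on both strands, beside 32544 promoters of all genes. Cyp2c39 and Cyp3a25 have a second listed start, and a gene was counted by its first. TATAAA occurred in 51.4% of the members' windows and 12.3% of all windows, AGGTCA in 32.4% and 14.0%, the HNF4 core CAAAGTCCA in 10.8% and 0.387%, TTATGNAA in 8.11% and 3.07%, GTTAAT (an HNF1 motif) in 10.8% and 6.47%, CCAAT in 37.8% and 33.8%, AGTTCA in 5.41% and 11.8%, and GCGTG in 13.5% and 28.3%. The counted Cyp2c39 window (chr19:39347096-39347345), which held AGGTCA, lies outside the GENCODE gene (chr19:39510862-39568529). The window of the other Cyp2c39 start (chr19:39510572-39510821) lies just before that gene. It was not counted, and it held AGTTCA and no AGGTCA. Members that are recent copies share these letters by descent, so the shares are descriptions and carry no test. Of the 10 members called in KO CDA-HFD livers, TATAAA was found for Cyp1a2, Cyp2a12, Cyp2c67, Cyp2d9, Cyp2d10, Cyp2d26 and Cyp2d40, and AGGTCA for Cyp2b9 and Cyp3a57. The remaining called member, Cyp2d12, had no promoter entry and was not searched.

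The 17 genes with a matching symbol that did not meet the count rule were Cyp2ab1, Cyp2b19, Cyp2b23, Cyp2c40, Cyp2c65, Cyp2c66, Cyp2c69, Cyp2d34, Cyp2g1, Cyp2j7, Cyp2j8, Cyp2j11, Cyp2j12, Cyp2j13, Cyp2w1, Cyp3a16 and Cyp3a44. The nearest to the rule were Cyp2c40, with 94 counts over the 20 livers and at least 10 in 3 of them, and Cyp3a44, with 124 counts and at least 10 in 1. Cyp2c66 had 0 counts. Of the members, Cyp2d11, with 140 counts and at least 10 in 6 libraries, and Cyp3a57, with 273 counts and at least 10 in 8, met it most narrowly.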

How the data were processed

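RNA was sequenced from 20 mouse livers, 5 from each combination of vector and diet. The authors deposited 1 table of raw counts, whole numbers of reads per gene symbol with no normalization, in the form that htseq-count writes. The build is mm10 per the submitters' notes, and the aligner, the counting version and the strand setting were not given in the sources used here, so reads of a gene and of an antisense gene cannot be told apart. Reads that matched several places (18.0 to 28.7% per liver), no gene (20.7 to 28.8%) or more than 1 gene (0.800 to 1.03%) were tallied separately by the authors and stayed out of all totals and tests. The labels and the study name different library kits. Totals on genes were 11697049 to 16827147 counts per liver.

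Counts were tested in R 4.3.3 with edgeR 4.0.16 (filterByExpr, TMM scaling, quasi-likelihood F test) within the 10 livers of each comparison and over all 20 for the interaction, with Benjamini-Hochberg adjustment over all genes tested and a threshold of 0.05. The SE of a log2 fold change was its size divided by the square root of F. Levels are CPM with TMM factors of all 20 livers. DESeq2 1.42.0, RLE factors, library size alone, other filters, a common fit, a replicate block and each liver left out were alternatives. The tests were checked on simulated counts. P-values measure the spread between livers, since nothing in the labels says more of their origin. No library of a group was a copy of another: the chi-square statistic per gene, near 1 for copies, was 6.94 to 124 over 40 pairs.

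Exon lengths, coding sequences and 75-base stretches came from GENCODE vM21, and upstream sequences from RefSeq (GRCm38.p6), in Python 3.11.15 with Biopython 1.88 and matplotlib 3.10.9. The members and lists were chosen with earlier results of these data known. Named with values were, in each subfamily, the member with the highest mean CPM and that with the smallest p in each comparison, every member called in a KO comparison or the interaction, and, of other lists, Por, Alas1, Nr1i2, Nr1i3, Ahr and the genes with the smallest p in each direction. The counts without KO CDA-HFD liver 5 were among the planned left-out fits, and its values were chosen for the text after the data were seen. The hepatocyte marker count for the KO comparison on CDA-HFD is not reported here.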

Additional observations from a re-analysis of the deposited data

Results flagged for a closer look

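In 112 groups of 5 livers (28 named members in 4 groups), 1 liver lay far from the other 4 in 4 groups by Dixon's test at its 95% limit of 0.71, where chance would give about 5.6. Cyp1b1 in KO CDA-HFD liver 5 was 22 CPM against 5.45 to 8.43 in the others (a gap of 0.819 of the range). Cyp2s1 in the same liver was 3.54 CPM against 0.570 to 0.906 (0.887). Cyp2d26 in WT CDA-HFD liver 1 was 257 CPM against 348 to 374 (0.782), and Cyp2f2 in WT WD liver 1 was 612 CPM against 737 to 783 (0.729).

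The KO effect on Cyp2d12 differed between diets, by 2.22 on the log2 scale in the interaction test of edgeR (adjusted p = 0.0114).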

How the results depend on the processing

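For KO against WT livers on CDA-HFD, the count of members that rose (9) was 20 with DESeq2, 16 with all 20 livers in 1 fit and 18 with a replicate block, and 3 to 23 when a liver was left out. Of all genes, 13% rose with DESeq2, 13.4% with all 20 livers and 7.02% with the block, against 8.19% in the main fit. With a liver left out, 2.05 to 19.6% of all genes rose. The count that fell (1) was 0 under library size scaling and under the filter of at least 10 counts in every library, and 0 to 3 when a liver was left out. Of all genes, 6.93% fell under library size scaling, 8.28% under that filter and 1.97 to 21.8% with a liver left out. On WD, DESeq2 called 2 members higher, against 0 with edgeR, where 0.404% and 0.0126% of all genes were higher. For CDA-HFD against WD, the count that rose in WT livers (6) was 2 under the filter of at least 10 counts in every library, where fewer members were tested (36 instead of 42). Of all genes, 25.6% rose under that filter, against 25.9% in the main fit. The count that fell in KO livers (11) was 7 to 13 when a liver was left out, where 4.8 to 8.37% of all genes fell. In the interaction, the count that was higher (1) was 3 with DESeq2, 0 under library size scaling and 0 under the stricter filter, and 1 to 8 when a liver was left out, and the count that was lower (0) was 0 to 1. Of all genes, 1.57%, 0.101% and 0.441% were higher in the first of these settings, in that order. With a liver left out, 0.0826 to 6.17% of all genes were higher and 0.101 to 5.71% lower. Except where the alternative tested fewer genes or used fewer livers, the cause was not tested. No named member that was past an unadjusted p of 0.05 reversed under any alternative. The labels state no pairing of the livers by number, and same-numbered livers correlated between -0.44 and 0.395 in their deviations. With 5 livers in each group, these correlations cannot exclude a shared origin or handling day. The block left the counts of the other comparisons within 1.5 times, but in KO against WT on CDA-HFD it gave 18 members higher instead of 9. Depth limits Cyp1a1, Cyp2b10, Cyp2b13, Cyp2d11, Cyp2d12, Cyp2s1 and Cyp3a57, which had fewer than 10 counts in some libraries.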
